A study of Ginkgo biloba with 7 samples.

Results

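miR390 is a conserved plant microRNA (miRNA), and its names and listed target genes were followed here in ovules of Ginkgo biloba, a gymnosperm that catches airborne pollen in a drop at the tip of the ovule. All names with the number 390 were taken from the small RNA table, which gave 11 of 279 miRNA names. Every gene paired with such a name in the list of miRNA targets was taken as well, which gave 35 of 902 listed target genes, and all 35 had a value among the 43456 genes of the gene table. Ovules came from 3 to 5 trees of the Fozhi cultivar, about 20 years old and grown outdoors, per the labels. PD stands for mature ovules taken while the drop was being secreted, and PN for pollinated ovules taken 1 day after pollination. The 7 samples comprised 4 RNA-seq libraries, 2 small RNA libraries (1 per stage) and 1 sample of mixed ovules, which carried the target list. No treatment or genotype set the stages apart. The effects of pollination and of elapsed time cannot be told apart, since the later ovules were all pollinated.

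In other plants the arm of miR390 that is cut from the 5′ side of its precursor (5p) is bound by ARGONAUTE7 and directs cleavage of TAS3 transcripts. RDR6 and SGS3 then make the cleaved transcript double-stranded, and DCL4 dices it into phased small RNAs that silence auxin response factor genes such as ARF3 and ARF4. The arm from the 3′ side (3p) is the passenger strand of this duplex and is usually degraded. The names carry the species of a known sequence (ath for Arabidopsis thaliana, gma for soybean, ptc for Populus trichocarpa, stu for potato, atr for Amborella trichopoda, cca for Cynara cardunculus, ppt for the moss Physcomitrella patens) and not the species of the ovules. Of the 11 names, 3 were marked 5p, 3 carried no arm and 5 were marked 3p. The files pair no gene ID with a gene name, so TAS3, AGO7 and the auxin response factors could not be picked out among the genes.

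The small RNA table counted 774387 reads in PD and 1129198 in PN, so that a count of 0 allowed a level of up to 3.87 and 2.66 TPM (reads scaled by the authors to the same total in each library). The gene table gives FPKM, a level per gene length and library size, and only 1 PD and 1 PN column could be matched to a library. Each assay thus had 1 library per stage, which gives no replicate error and allows no test between the stages. All intervals are exact 95% intervals for counting error, and each difference is one between 2 libraries. In whole ovules, fewer cells of a type and less RNA per cell cannot be told apart.

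The abundant arm of miR390 differed little between the stages, whereas the sparse 3p arm was several-fold higher after pollination. The 5p or unmarked names summed to 7577 reads in PD and 12440 in PN, which is 9785 and 11017 TPM and a ratio PN over PD of 1.13 (95% interval 1.09 to 1.16). The 3p names summed to 106 and 949 reads, or 137 and 840 TPM, a ratio of 6.14 (5.02 to 7.58). All names together held 0.992% of the counted reads in PD and 1.19% in PN. Names may hold the same reads, so these sums may count reads repeatedly. With names of identical counts taken as 1, the 5p or unmarked sum was 6569 and 7403 TPM, a ratio of 1.13 (1.09 to 1.17). The 5p or unmarked name with most reads alone had 3226 and 3623 TPM.

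Among the 5p or unmarked names, 3 names held nearly all reads. The Amborella name atr-miR390.1 had 2498 reads in PD and 4091 in PN (3226 and 3623 TPM). The names ath-miR390a-5p and gma-miR390e had identical counts of 2490 and 4081 reads (3215 and 3614 TPM). They differed from atr-miR390.1 by 8 reads in PD and 10 in PN, so these 3 names may hold the same reads. The ratio was 1.12 for each of the 3, with an interval of 1.07 to 1.18 for each.

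The other names on this side were sparse. cca-miR390 had 46 reads in PD and 75 in PN, a ratio of 1.12 (0.764 to 1.65). ppt-miR390c-5p had 17 and 28 reads, a ratio of 1.13 (0.597 to 2.20). The intervals of these names included equal shares, and both point values lay close to those of the abundant names. gma-miR390b-5p was the exception on this side, with 36 and 84 reads (46.5 and 74.4 TPM) and a ratio of 1.60 (1.07 to 2.43). Its interval overlapped that of the abundant names.

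The 3p side was carried by a single poplar name. ptc-miR390d-3p had 86 reads in PD and 847 in PN (111 and 750 TPM), a ratio of 6.75 (5.41 to 8.53). The names ath-miR390a-3p and gma-miR390a-3p had identical counts of 9 and 42 reads (11.6 and 37.2 TPM), a ratio of 3.20 (1.54 to 7.48), and may hold the same reads. ath-miR390b-3p had 1 read in PD and 18 in PN, a ratio of 12.3 with a wide interval of 1.95 to 514. The potato name stu-miR390-3p had 1 read in PD and 0 in PN, both under the limit that a count of 0 allows, so no ratio was formed. The 4 names with reads in both libraries were all higher in PN, and their intervals overlapped one another. Without ptc-miR390d-3p, the other 4 names of the 3p arm summed to 20 and 102 reads, a ratio of 3.50 (2.15 to 5.97).

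**Figure D1:**
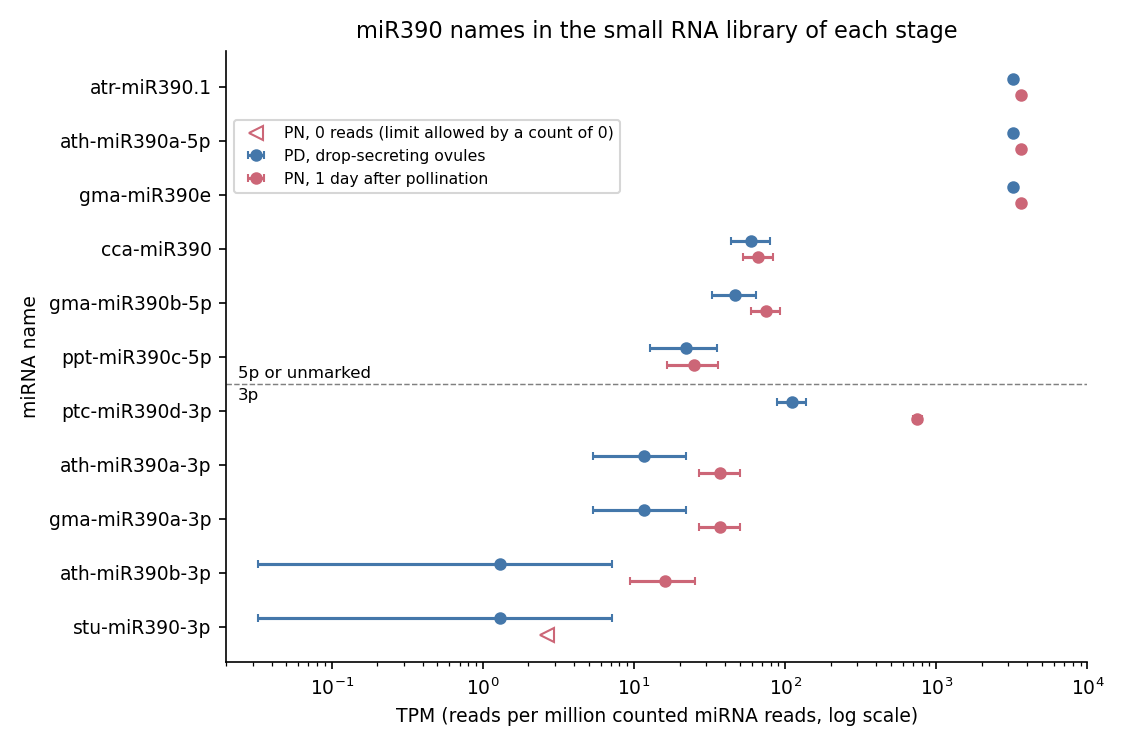
Level of each miR390 name in TPM (log axis) in the PD and PN small RNA libraries, with exact 95% counting intervals and 1 library per stage; the open triangle marks the limit that a count of 0 allows. The abundant 5p or unmarked names lie close together at both stages, and ptc-miR390d-3p lies at 111 TPM in PD and 750 TPM in PN.

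Across the whole small RNA table, 127 names had at least 50 reads in both libraries together, 8 of them names of miR390. A name was called higher or lower when its share differed at least 2-fold and its interval excluded equal shares, which held for 8.66% of the 127 names in the direction higher in PN and for 7.09% lower. Of the miR390 names, 3 were called higher and 0 lower, and 2 of these 3 shared their counts. The 3 were the 3p names ptc-miR390d-3p, ath-miR390a-3p and gma-miR390a-3p. ptc-miR390d-3p ranked 2 of 127 by its ratio, and the pair with identical counts took ranks 7 and 8. gma-miR390b-5p ranked 17, and the 3 abundant names took ranks 45 to 47.

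Among names outside miR390 with at least 50 reads, those with the nearest ratios were picked to place both arms, with the absolute difference of log2 ratios over the 2 libraries as the measure of likeness. Nearest to atr-miR390.1 were the predicted miRNA novel_30 (1005 and 1644 reads, ratio 1.12), ath-miR160a-5p (404 and 668 reads, ratio 1.13) and ath-miR162a-3p (1095 and 1814 reads, ratio 1.14), at distances of 0.00166, 0.0138 and 0.0166. miR160 targets auxin response factors and miR162 targets DCL1 in other plants. Nearest to ptc-miR390d-3p were novel_33 (7 and 92 reads, ratio 9.01), novel_17 (49 and 292 reads, ratio 4.09) and ath-miR166a-5p (44 and 237 reads, ratio 3.69), at distances of 0.416, 0.725 and 0.871. The larger distances for ptc-miR390d-3p go with its rank of 2 of 127 by ratio, at the end of the range where few names lie. atr-miR390.1 had rank 47, so the 2 sets of distances are not compared. ath-miR166a-5p is, like the 3p names of miR390, the sparse arm of an abundant miRNA.

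**Figure D2:**
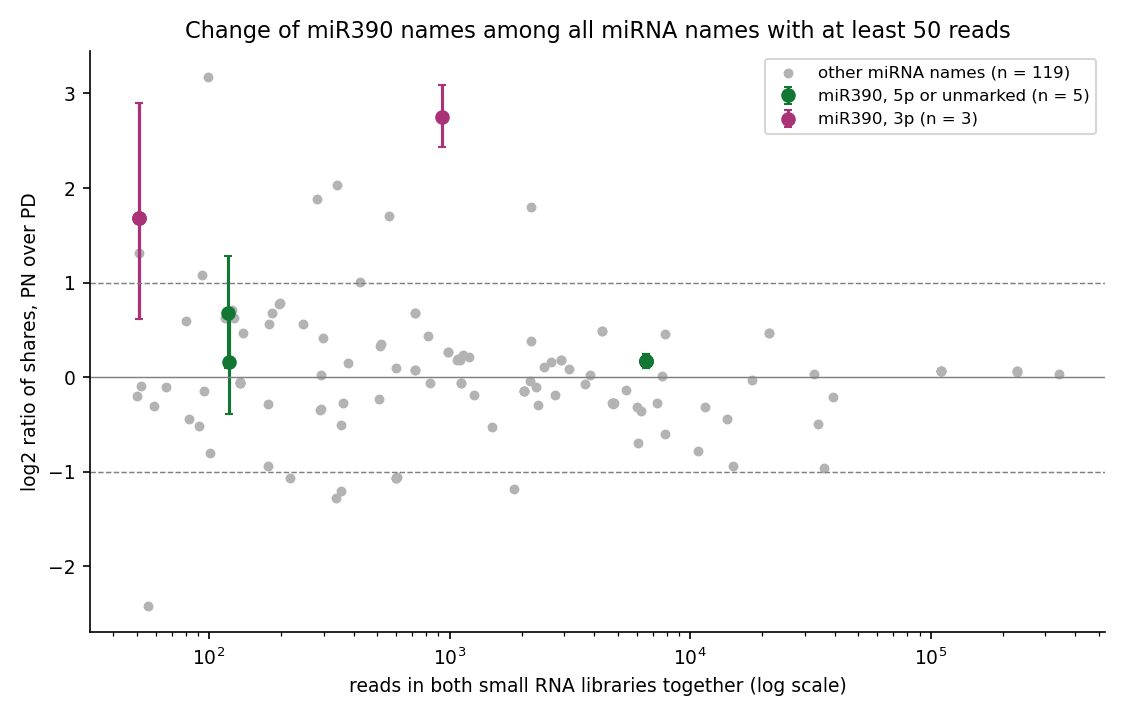
log2 ratio of shares, PN over PD, against the reads of a name in both small RNA libraries (log axis), for the 127 names with at least 50 reads; bars are exact 95% counting intervals of the miR390 names, dashed lines mark 2-fold, and names with the same or nearly the same counts lie on top of each other. The 3p names of miR390 lie above the upper line, and the 5p or unmarked names lie between the lines.

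The balance of the arms within a library does not depend on how the libraries were scaled against each other. The 3p names had 1.40 reads per 100 reads of the 5p or unmarked names in PD (1.14 to 1.69) and 7.63 in PN (7.13 to 8.15). The balance was thus 5.45 times as high in PN (4.45 to 6.74). Between the most abundant names of each arm, ptc-miR390d-3p per 100 reads of atr-miR390.1, it went from 3.44 to 20.7, a ratio of 6.01 (4.78 to 7.64). Against names marked 5p alone, the 3p names went from 4.17 to 22.6 per 100, a ratio of 5.43 (4.41 to 6.74). The size rested on the poplar name. Without ptc-miR390d-3p the balance went from 0.264 to 0.820 per 100, a ratio of 3.11 (1.91 to 5.30). For the arms of ath-miR390a alone the ratio was 2.85 (1.36 to 6.66).

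Other miRNAs with both arms counted gave the background for this balance. Of the 3 other stems with both arms named, ath-miR166a had a ratio of 3.55 (2.56 to 5.01) for its 5p arm over its 3p arm. For ath-miR396b, the 3p arm had 19.9 reads per 100 of the 5p arm in PD and 20.2 in PN, a ratio of 1.02 (0.946 to 1.09). ptc-miR396g had a ratio of 0.972 (0.293 to 3.80) on few reads. By family sums, 3 other families had both arms marked and at least 50 reads of the sparser arm. In miR408 the only 5p name had the same counts as a 3p name, 354 and 247 reads, so no balance of its arms was used. miR166 had a ratio of 3.32 (2.99 to 3.70). miR396 had a ratio of 1.03 (0.973 to 1.08) once 2 names with identical counts on both arms were left out, a choice made after seeing the data, and 0.978 (0.932 to 1.03) with them. In these libraries the sparse arm thus had a higher share in PN for miR390 and miR166, while the intervals of miR396 included an equal balance. The interval of the miR390 balance over all names lay above that of the miR166 family, while that without ptc-miR390d-3p overlapped it. For both arms of 1 name, the ratio was 2.85 (1.36 to 6.66) for ath-miR390a and 3.55 (2.56 to 5.01) for ath-miR166a. These 2 intervals overlapped, so on this measure miR390 did not stand above miR166.

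**Figure D3:**
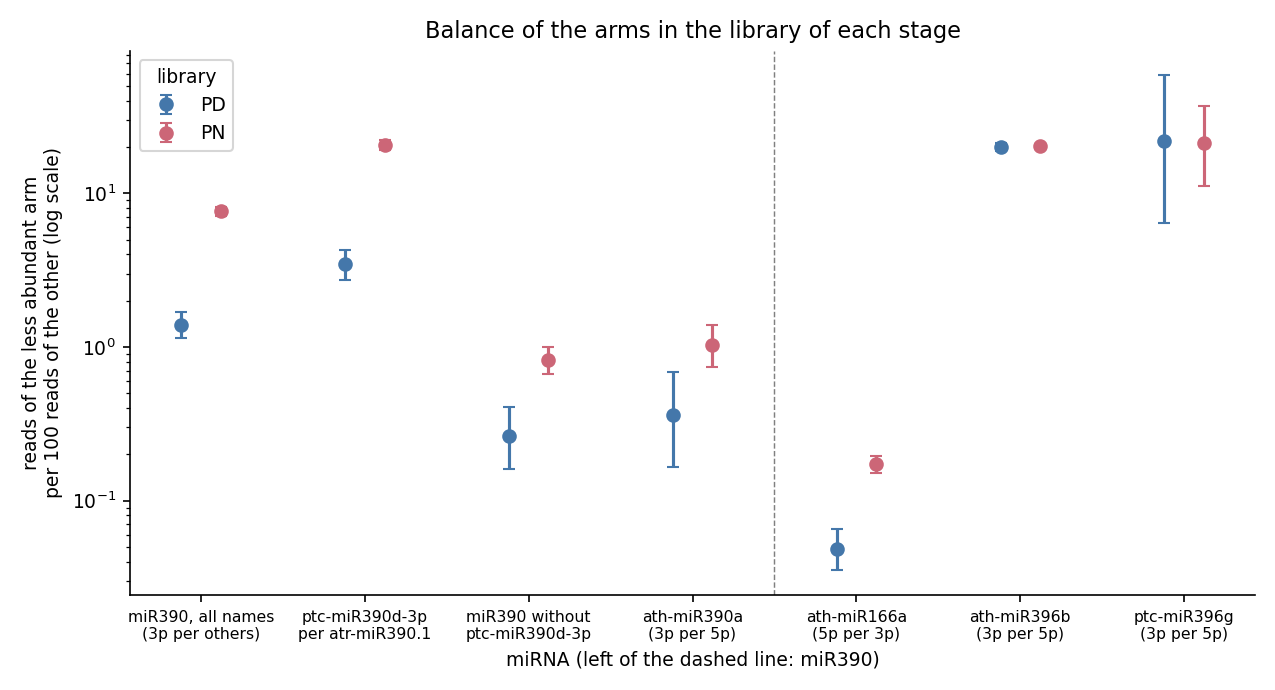
Reads of the less abundant arm per 100 reads of the other arm (log axis) in the PD and PN libraries, with exact 95% counting intervals, for 4 ways of taking the miR390 names (left of the dashed line) and for the 3 other miRNAs with both arms named. For miR390 and ath-miR166a the PN point lies above the PD point with intervals that do not overlap, and for the names of miR396 the points lie at the same height.

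Family sums of other miRNAs of the same pathway had ratios PN over PD from 0.812 to 1.91. The like measure for miR390 is the sum of all its names, 0.992% of the counted reads in PD and 1.19% in PN. The 3p sum of miR390 covers 1 sparse arm only and is not set against these family sums. As for miR390, names of a family may hold the same reads, so the family sums may count reads repeatedly. Their intervals are too narrow where they do. Of 10 families listed for their part in auxin response or in phased small RNA production in other plants, 7 had names in the table, with 39 names. Of these names, 19 had at least 50 reads, and 0 of the 19 were called higher or lower, beside the 8.66% and 7.09% of all 127 names; the other 20 names had too few reads for a call. Among miRNAs that target auxin response factors, miR160 had 1781 and 2954 reads, a ratio of 1.14 (1.07 to 1.21), and miR167 had 22885 and 27108 reads, a ratio of 0.812 (0.798 to 0.827). The names aau-miR160 and csi-miR160 had identical counts of 408 and 680 reads, and each alone had a ratio of 1.14 (1.01 to 1.30). miR393, which targets auxin receptors, had no name in the table. Among families known as triggers of phased small RNAs, miR828, which directs cleavage of TAS4 in Arabidopsis, had 3 and 5 reads, a ratio of 1.14 with an interval of 0.222 to 7.36. miR482 had 15 and 41 reads and miR2118 had 24 and 67 reads, with ratios of 1.87 (1.02 to 3.65) and 1.91 (1.19 to 3.19). However, gma-miR2118a-3p and pvu-miR2118 had identical counts of 12 and 33 reads and may hold the same reads. Each of them alone had a ratio of 1.89 (0.949 to 4.01), an interval that included equal shares. miR173, the trigger of TAS1 and TAS2 in Arabidopsis, had no name. Among miRNAs that target the small RNA machinery itself, miR162, a regulator of DCL1, had a ratio of 1.02 (0.984 to 1.06), and miR168, a regulator of AGO1, one of 1.20 (1.09 to 1.32). miR403 had no name.

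The target list assigned most miR390 targets to the sparse arm. Of the 35 target genes, 28 (80.0%) were listed for 3p names and 7 for 5p or unmarked names, and each gene was listed for a single miR390 name. This includes names with identical counts, since the 3 genes of gma-miR390a-3p and the 1 gene of ath-miR390a-3p were different genes. Across the whole list, 4.76% of the pairs of a family and a gene were listed under more than 1 name of that family. The assignment did not follow the reads. stu-miR390-3p, with 1 read in all, was paired with 12 genes, which is 34.3% of the miR390 targets. ath-miR390b-3p, with 19 reads in all, was paired with 8 genes and ptc-miR390d-3p with 4. On the other side gma-miR390e and gma-miR390b-5p had 2 genes each, while atr-miR390.1, ath-miR390a-5p and cca-miR390 had 1 each. ppt-miR390c-5p had 0.

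Names with few reads carried targets in other families as well. Of all 1084 distinct pairs, 27.2% belonged to names with at most 3 reads in both libraries. There were 40 names with targets and a single read, with a median of 3 targets and at most 38. Among the 14 families with at least 20 targets and with both 3p and other names, the share of targets listed for 3p names ranged from 0% for miR319 to 80.0% for miR390. It was 67.6% for miR408 and 58.1% for miR395. These shares depend on how names are marked, since names without an arm counted as not 3p. The 3p arm is also not the sparse arm of every family, as miR166 shows. The range is thus not one of targets listed for sparse arms. The list gives no cleavage category, read count or p-value, so no pair could be ranked by its evidence.

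Of the 35 genes, 7 (20.0%) were also listed for other families, against 95 of all 902 target genes (10.5%) listed for 2 or more families. All 7 belonged to 3p names, which held 28 (80.0%) of the 35 genes. Gb_23724 was also listed for names of miR156, miR157, miR529 and miR535, and Gb_15645 for names of miR167, miR172, miR394 and miR1030. Gb_24884 was also listed for miR396 and miR398, Gb_17170 for miR396, Gb_40285 for miR172, Gb_18045 for miR476 and Gb_40095 for miR159.

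Genes listed as targets did not move together between the stages. Differences are of log2(FPKM + 1), PN minus PD, over genes with a mean of at least 1 FPKM. On this scale changes are understated for genes with values close to 1 FPKM. The filter was passed by 30 of the 35 targets, namely by 7 of 7 listed for 5p or unmarked names and by 23 of 28 listed for 3p names. Of the 30, 2 were higher in PN by 2-fold or more and 4 were lower by as much. This compares with a background in which 9.27% of all 21308 compared genes were higher and 6.86% were lower. With median-of-ratios scaling of both libraries 1568 of all genes were higher and 1769 lower, in place of 1976 and 1462, and the median difference of all genes was 0.004 in place of 0.11. The targets' median difference was 0.14, with 16 genes above 0 and 14 below.

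For the 5p or unmarked names the list of targets was short and stood close to all genes. The median difference was 0.10 over 7 genes, with 0 genes higher by 2-fold or more and 1 lower. For the 3p names it was 0.17 over 23 genes, with 2 higher and 3 lower. The medians of both lists differed little beside their ranges, which ran from -1.59 to 0.96 for 5p or unmarked and from -3.73 to 1.28 for 3p. With median-of-ratios scaling the medians were -0.01 and 0.06, beside 0.004 for all genes, so that the sign of the 5p or unmarked median turned and that of the 3p median did not. For 867 targets of other families, of which 767 were compared, the median was 0.07. The lists are not replicates of a condition, and the difference between them was not tested.

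The gene with the lowest relative level after pollination on the 5p or unmarked side was Gb_40451, listed for cca-miR390. Its level was 102 FPKM in PD against 33.2 in PN (-1.59). Gb_06228, listed for ath-miR390a-5p, went the other way, from 34.6 to 68.2 FPKM (0.96), just under the 2-fold limit. The genes of gma-miR390b-5p were also higher in PN, with Gb_05997 at 17.0 and 30.6 FPKM (0.81) and Gb_12828 at 4.46 and 5.73 FPKM (0.30). Genes of atr-miR390.1 and gma-miR390e differed little. Gb_15257, listed for atr-miR390.1, stood at 17.8 and 16.2 FPKM (-0.13). Of the genes of gma-miR390e, Gb_27118 stood at 49.3 and 53.0 FPKM (0.10) and Gb_36836 at 32.9 and 29.4 FPKM (-0.16). The direction of Gb_27118 turned under median-of-ratios scaling, where its difference was -0.01.

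The 4 genes of ptc-miR390d-3p, the name whose reads were 6.75-fold higher in PN, were split. Gb_29062 was the target with the highest relative level after pollination, at 88.5 FPKM before and 216 after it (1.28). Gb_03242 was also higher, at 10.6 and 17.2 FPKM (0.64). Gb_18045 was lower at 15.3 and 11.9 FPKM (-0.34), and Gb_16008, at 0.901 and 0.411 FPKM, did not pass the filter. Of the 3 compared genes, 2 were thus at a higher and 1 at a lower level in PN.

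The 8 genes of ath-miR390b-3p included 3 beyond 2-fold. Gb_29426 stood at 288 FPKM in PD against 596 in PN (1.05), and was under the limit under median-of-ratios scaling (0.93). Gb_35183 stood at 103 and 46.3 FPKM (-1.13) and Gb_40285 at 23.9 and 9.51 FPKM (-1.25). Of the other genes of this name, Gb_15645 (73.6 and 42.8 FPKM) and Gb_10079 (28.6 and 17.5 FPKM) were lower in PN, by less than 2-fold. Gb_17170 was an abundant transcript, at 673 and 1001 FPKM (0.57). Gb_35655 (153 and 141 FPKM) and Gb_23724 (21.5 and 24.4 FPKM) were nearly level.

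Genes of the identical pair of 3p names were mostly level. Of the genes of gma-miR390a-3p, Gb_22635 stood at 28.1 and 32.3 FPKM (0.20) and Gb_11152 at 41.5 and 38.9 FPKM (-0.09), while Gb_00306 did not pass the filter at 0.116 and 0.196 FPKM. Gb_00740, listed for ath-miR390a-3p, stood at 3.94 and 6.41 FPKM (0.59).

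The largest difference of any miR390 target was that of Gb_11196, one of the 12 genes of stu-miR390-3p. It stood at 10852 FPKM during drop secretion and at 817 after pollination, 13.3-fold lower on the FPKM + 1 scale (-3.73). In PD it was the gene with rank 3 by FPKM and held 0.991% of the summed FPKM, and in PN it had rank 142 and held 0.0777%. Only 2 genes of the table lost more FPKM between these libraries. The name it is listed for had 1 read in PD and 0 in PN.

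The other genes of stu-miR390-3p were within 2-fold. Gb_16287 was abundant and higher in PN, at 591 and 911 FPKM (0.62), and Gb_27837 was close to the limit at 25.1 and 48.5 FPKM (0.93). Gb_15605 (83.4 and 112 FPKM) and Gb_28488 (7.15 and 10.8 FPKM) were also higher. Gb_40095 (232 and 215 FPKM), Gb_15039 (27.04 and 30.6 FPKM) and Gb_04223 (11.6 and 11.5 FPKM) were nearly level, and Gb_19640 (18.5 and 13.2 FPKM) was lower. Gb_24884 did not pass the filter at 1.18 and 0.730 FPKM, and Gb_07439 and Gb_36692 were listed at 0 in both libraries. Without the genes of this name the median of the 3p list was 0.04 in place of 0.17.

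**Figure D4:**
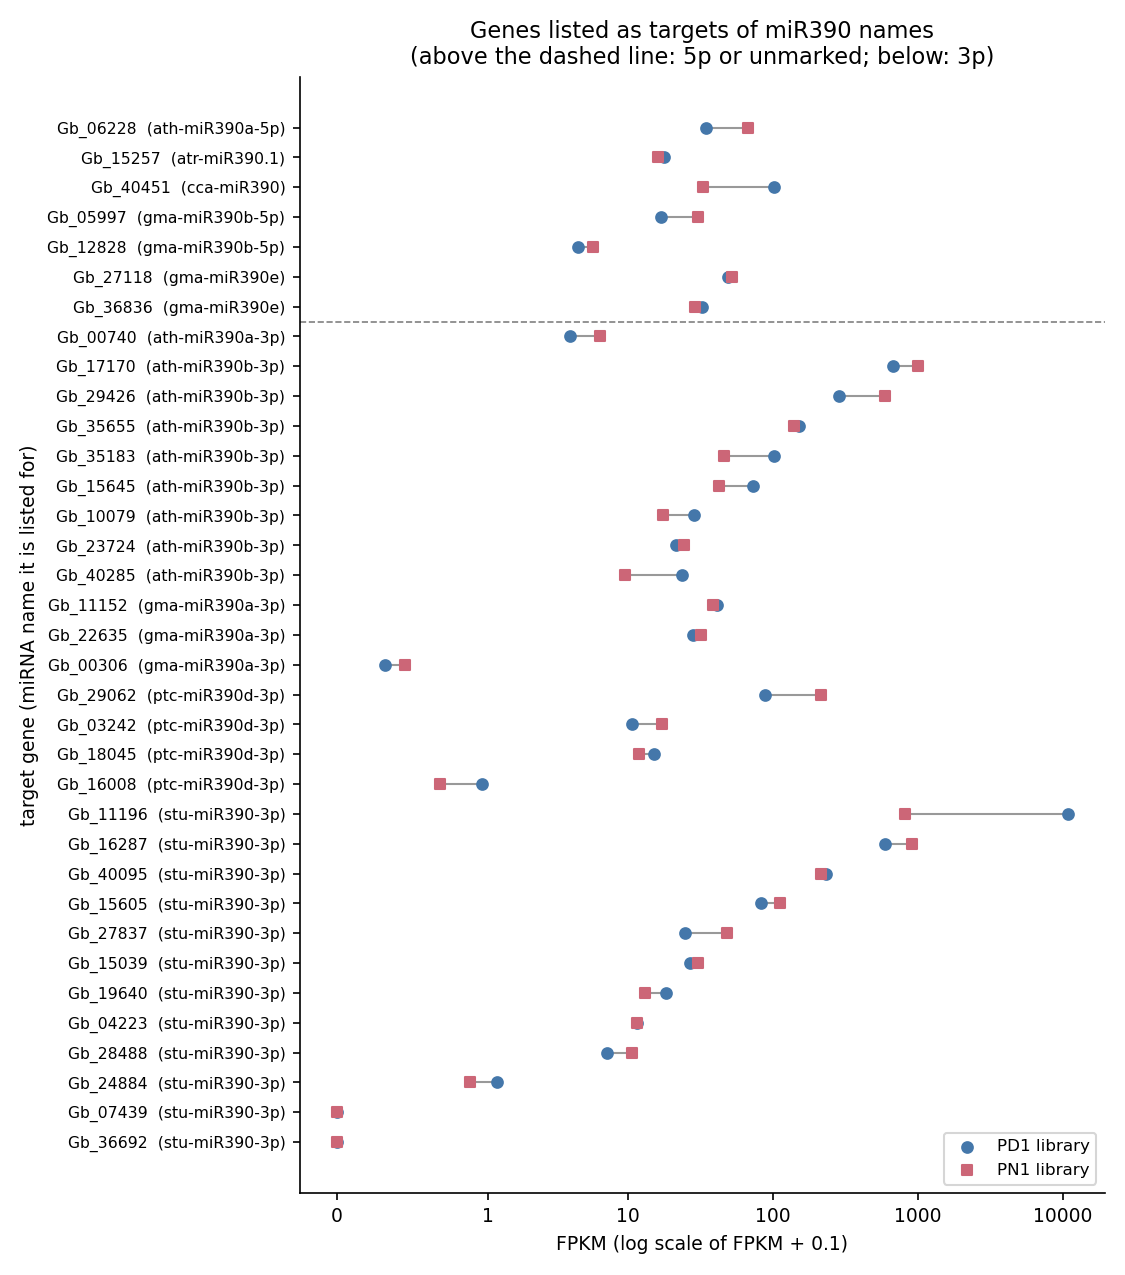
FPKM of the 35 genes listed as targets of miR390 names in the PD1 (circles) and PN1 (squares) libraries, on a log axis of FPKM + 0.1 and with 1 library per stage; labels give the gene and the name it is listed for. Most pairs of points lie close together, and Gb_11196 goes from 10852 to 817 FPKM.

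Most listed genes were expressed above the middle of the gene table, by FPKM, a level per length. The median of the mean FPKM was 31.1 for the 7 genes of 5p or unmarked names and 36.8 for the 23 compared genes of 3p names. All compared genes had a median of 12.8 and targets of other families one of 43.3. Of the 35 miR390 targets, 26 lay above the median of the compared genes and 15 above the third quartile of 33.4 FPKM. The 4 most abundant, Gb_11196, Gb_17170, Gb_16287 and Gb_29426, belonged to the 3p names with fewest reads, stu-miR390-3p and ath-miR390b-3p. These names also had the most targets, 9 and 8 of the 30 compared genes.

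**Figure D5:**
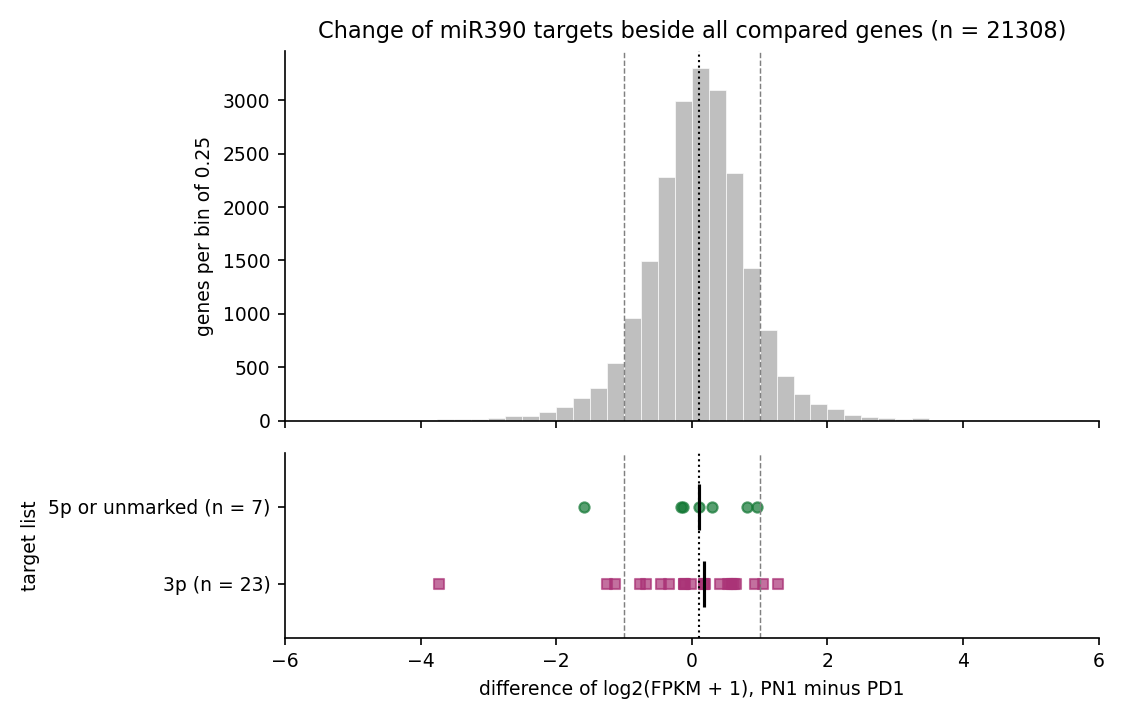
Difference of log2(FPKM + 1), PN1 minus PD1, for all 21308 compared genes (upper panel, genes per bin; 4 genes lie outside the plotted range) and for the miR390 targets of each arm (lower panel, 1 point per gene, black bars at the medians of 0.10 and 0.17); dashed lines mark 2-fold and the dotted line the median of all genes, 0.11. Points of both lists spread around the dotted line, and Gb_11196 lies apart at -3.73.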

How the data were processed

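Read counts per miRNA name are whole numbers in the table the authors deposited, without normalization. The TPM values deposited by the authors equal the reads scaled to the sum of that table to within 4.95e-05. How reads were assigned to names is not given in the sources used here. FPKM values per gene were computed by the authors, as the column names say. The submitters' processing notes list Bowtie, TopHat, Cufflinks 2.1.1 and TopHat2 2.0.12 with no roles. The genome build is not given in the sources used here. Of 4 value columns of the gene table, 2 are both headed PD2 and none is headed PN2, so these 2 were not used. Among 2379 genes above 0 and under 0.5 FPKM in both libraries, the commonest ratio of values was 0.848, a relative depth of 1.18 for PN; absolute depth is unknown. The target list of the mixed ovules has 1092 rows, of which 8 repeat others, and no units.

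Shares were taken of all counted reads. Share intervals are Clopper-Pearson, ratio intervals conditional binomial, and arm balance intervals conditional on the margins (Python 3.11.15, SciPy 1.17.1). The ratio and arm balance intervals were tested on simulated data with independently drawn counts, and the share intervals were not. All of these intervals cover counting error only and are too narrow where names repeat reads. The limit for a count of 0 is 3 reads. Named were all miR390 names and all of their targets. The members, lists and rules were chosen with earlier results of these data known. The fit with replicates planned for genes (limma) could not be run.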

Additional observations from a re-analysis of the deposited data

How the results depend on the processing

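No paired analysis was possible because 2 columns of the gene table are both headed PD2 and none PN2, which leaves 1 usable column per stage; likewise no fit left out a replicate. The ratio of the 5p or unmarked sum was 1.20 when miR166, which holds most counted reads, was left out of the total. Leaving out ptc-miR390d-3p, an alternative chosen after seeing the data, gave 3.50 for the 3p sum and 3.11 for the arm balance, and the arms of ath-miR390a alone gave 2.85, all in the direction reported. Counting identical names once and median-of-ratios scaling of reads left the ratios of these sums within their intervals. With 10 reads or no minimum, 4 miR390 names were higher. Median-of-ratios scaling of FPKM gave medians of -0.014 (5p or unmarked) and 0.060 (3p) and left 1 gene of the 3p list at least 2-fold higher; by construction it lowers every difference by about 0.12. The 5p or unmarked median was 0.20 without the gene of atr-miR390.1. The 3p median was 0.046 without the FPKM filter and 0.043 without the genes of stu-miR390-3p (also chosen after seeing the data); the cause was not tested. Depth limits the names with few reads: the interval of ath-miR390b-3p runs from 1.95 to 514.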
